A study of Mus musculus with 72 samples.

Results

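The 9 genes described here encode the proteins by which a mouse cell senses endotoxin and related bacterial molecules: Lbp, Cd14, Ly96, Tlr4, Tlr2, Tlr5, Tirap, Myd88 and Nfkbia. They were chosen by name, as the rows of the count table whose Ensembl gene identifier carries these symbols and whose mean level reached 0.5 CPM, a count scaled to the size of its library, and all 9 of 9 met that level, out of 55573 genes in the table. RNA was measured in bulk liver of adult male C57BL/6 mice (a C57BL/6J background by the study's methods) in 4 groups of 18 libraries, with 3 libraries at each of 6 zeitgeber times (ZT, counted in hours after the lights came on), which ran from ZT2 to ZT22 in steps of 4 h. WT mice were Bmal1 fl/fl, with loxP sites around the gene of a core clock activator. LKO mice were Bmal1 fl/fl with Albumin-Cre, a recombinase driven by the albumin promoter and so active in hepatocytes. Both genotypes thus carried the floxed allele. Only LKO mice carried Cre, so Cre and the loss of Bmal1 cannot be told apart. Bmal1 was not measured in separate types of liver cell. Either genotype was specific pathogen free (SPF), with its gut microbes, or germ free (GF). The GF mice were rederived and lived in isolators, so microbial status and housing cannot be told apart. All mice ate autoclaved chow ad libitum under equal periods of light and dark.

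Endotoxin, the lipopolysaccharide of Gram-negative bacteria, reaches the liver from the gut in portal blood. LBP, a plasma protein made by hepatocytes, takes up lipopolysaccharide and hands it to CD14, which passes it to a complex of TLR4 and MD-2 (the product of Ly96) on the cell surface. TLR2 binds bacterial lipoproteins and TLR5 binds flagellin, the protein of bacterial flagella. The adaptors TIRAP and MYD88 carry the signal inward to NF-kB, and NF-kB switches on Nfkbia, whose product holds NF-kB in the cytoplasm and so ends the response. In liver, Kupffer cells, the resident macrophages, and sinusoidal endothelial cells are known for TLR4 and CD14, while hepatocytes secrete LBP.

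On mouse build GRCm38, Lbp lies on chromosome 2 from 158306493 to 158332852 and Ly96 on chromosome 1 from 16688051 to 16709611. Tlr4 spans 66827584 to 66930284 of chromosome 4, Tlr2 spans 83836272 to 83841767 of chromosome 3, and Tlr5 spans 182954788 to 182976044 of chromosome 1. Myd88 and Tirap are both on chromosome 9, at 119335934 to 119341411 and 35184551 to 35200291, and Nfkbia is on chromosome 12 at 55489410 to 55492647. Counts were summed over all exons of a gene without use of the strand. Myd88 overlaps Slc22a14 on its own strand and Acaa1a on the other, and Tirap overlaps Gm39318 and Srpr on the other strand, so the levels of these 2 adaptors are less certain than those of the 7 genes with no overlap.

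The 250 bases before the start site are shown for the receptor with the largest differences between groups, Tlr5, and for Nfkbia, the feedback gene of the pathway. They are from RefSeq on GRCm38.p6, and both windows end at the base before the first exon of the gene. Windows of 5 of the 9 genes were searched (Tlr2, Tlr5, Myd88, Tirap and Nfkbia), and Cd14 was left out of the search. Capitals mark the matches to the motifs searched, and the strand given is that of the gene.
Tlr5, chr1:182954538-182954787, plus strand: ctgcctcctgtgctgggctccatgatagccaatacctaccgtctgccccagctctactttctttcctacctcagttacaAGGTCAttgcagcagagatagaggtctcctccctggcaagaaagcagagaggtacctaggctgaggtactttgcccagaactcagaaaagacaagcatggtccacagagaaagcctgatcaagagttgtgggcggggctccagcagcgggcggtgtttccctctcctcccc
Nfkbia, chr12:55492648-55492897, minus strand: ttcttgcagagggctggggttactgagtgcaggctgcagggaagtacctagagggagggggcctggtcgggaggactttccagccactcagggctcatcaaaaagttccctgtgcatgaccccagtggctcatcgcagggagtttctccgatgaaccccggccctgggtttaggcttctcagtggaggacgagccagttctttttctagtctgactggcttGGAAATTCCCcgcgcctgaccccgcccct
The motifs, read on both strands, were the NF-kB consensus, the E-box CACGTG of the clock activators, the D-box TTANNTAA of the PAR bZIP factors, TTCNNNGAA of the STAT factors, TTGCNNAA of the C/EBP factors and AGGTCA of the ROR and REV-ERB receptors. The Nfkbia window held the NF-kB consensus at -29 to -20 from the start site, and the Tlr5 window held AGGTCA at -171 to -166. The NF-kB consensus was found in 7.25% of 32851 mouse promoters of this length and AGGTCA in 14%. CACGTG, which 6.02% of promoters hold, was in no window of these 5 genes, and neither was TTGCNNAA, which 9.56% hold. Of the windows not printed, that of Tlr2 held overlapping NF-kB matches between -173 and -163 and AGGTCA on the other strand at -15 to -10, that of Myd88 held TTANNTAA at -163 to -156 and TTCNNNGAA at -46 to -38, and that of Tirap held TTANNTAA at -247 to -240. TTANNTAA stood in 5.43% of promoters and TTCNNNGAA in 7.02%. A match is a run of letters and not a measured binding site.

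Libraries held 17369927 to 22076113 counts (median 19106725), and Tlr2, with a median of 42 counts per library, Cd14 with 42 and Tlr4 with 56 were the least precisely measured of the 9. Markers of hepatocytes, Kupffer cells, sinusoidal endothelial cells and stellate cells were present in every group. The clock genes of 4 libraries went against their labels. Npas2 in the libraries labelled SPF LKO ZT14 replicate 2 and ZT18 replicate 1 stood at 0.221 and 1.83 CPM, where the other SPF LKO libraries had 14.4 to 36.4 and the other SPF WT libraries 0 to 9.89. Nr1d1 stood at 84.8 CPM in that labelled SPF WT ZT14 replicate 3, against 3.07 to 8.55 in the others of its ZT, and at 9.39 in that labelled GF WT ZT6 replicate 3, against 49.1 to 51.1. All 72 libraries were kept, and many results that rest on these 4 are also given without them. Some counts in lists of genes that change without these 4 are given with them only. Arntl, the targeted gene, ranged from 0.626 to 39.5 CPM in the other SPF WT libraries, from 8.52 to 16.8 in SPF LKO, from 0.332 to 41 in GF WT and from 7.06 to 13.4 in GF LKO, a sum over the whole gene that does not show the deleted part alone. A further library, SPF WT ZT6 replicate 3, had the highest Tlr2 and Tlr4 of all 72.

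Compared per kilobase of exon over all 72 libraries, Nfkbia had the highest level of the 9, at 19.2 CPM per kb, and Lbp followed at 15. Myd88 at 5.28, Tirap at 5.24 and Ly96 at 4.55 formed the middle of the order, and Myd88 and Tirap could not be separated there, since Myd88 had the higher mean in the WT groups and Tirap in the LKO groups. Cd14 at 1.29, Tlr5 at 1.23, Tlr2 at 0.794 and Tlr4 at 0.556 CPM per kb were the lowest. Thus the plasma carrier and the inhibitor stood above the adaptors, and the receptors on the cell surface stood lowest. The rank of Tlr5 depended on the group, from 1.86 CPM per kb in SPF WT, above the other receptors and Cd14, to 0.496 in GF LKO, close to Tlr4 at 0.462.

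The first question was what the absence of microbes and the loss of the liver clock did to these genes with all ZT pooled. A gene was called where edgeR's quasi-likelihood p, corrected by Benjamini-Hochberg over every gene tested, was below 0.05. Between GF and SPF WT mice 4 of the 9 genes were called, all lower in GF, where 31.8% of all genes were called in either direction. Between GF and SPF LKO mice 3 of 9 were called, with Tlr5 and Tlr4 lower and Cd14 higher in GF, where 36.4% of all genes were called. Between SPF LKO and SPF WT mice 3 of 9 were called, all lower in LKO (Tlr5, Nfkbia and Myd88), against 23.1% of all genes. Between GF LKO and GF WT mice 4 of 9 were called, with Tlr5 and Myd88 lower and Lbp and Cd14 higher in LKO, against 30.8% of all genes. These counts are near the shares over all genes. Tlr5 had the largest difference of the 9 in 3 of the 4 comparisons, and between GF and SPF WT mice that of Tlr2 was larger, at -0.51 against -0.36 on the log2 scale. Each pair of these comparisons that has a group in common shares that group's libraries.

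**Figure D1:**
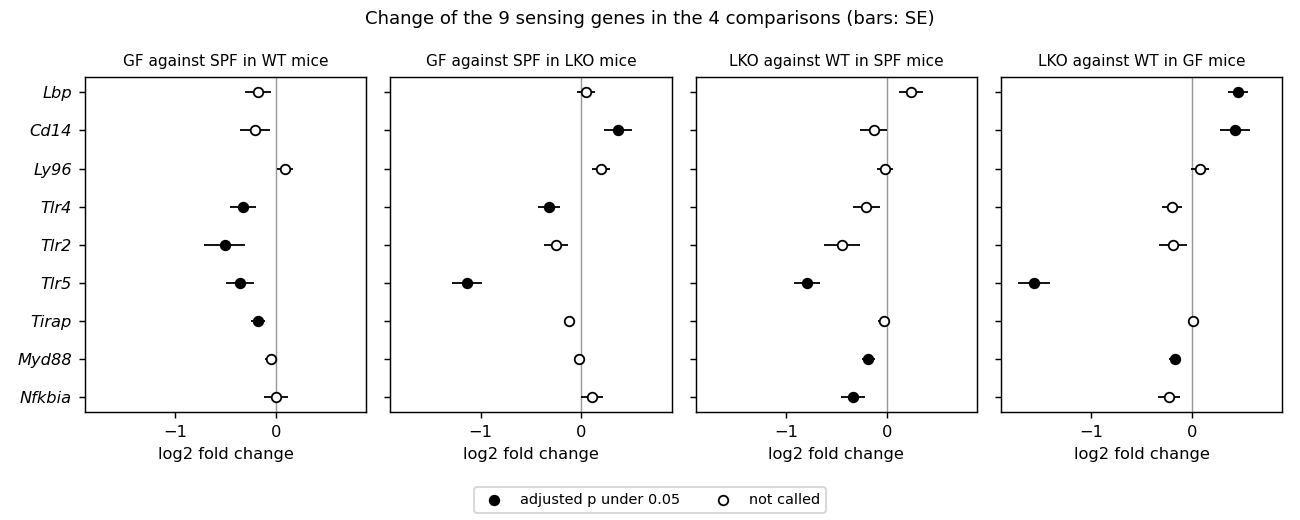
Log2 fold change of each of the 9 genes (x axis, bars are the standard error) in the 4 comparisons with all ZT pooled, 18 libraries in each group, filled where the adjusted p is under 0.05. Tlr5 lies to the left of the zero line in all 4 panels and reaches -1.57 between GF LKO and GF WT mice.

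Tlr5, the flagellin receptor, was lower without the clock and lower without microbes, and lowest where both were missing. In SPF WT mice it ranged from 5.43 to 14.1 CPM with a median of 9.06, and in SPF LKO mice from 2.43 to 9.08 with a median of 5.25. GF WT mice had 2.89 to 12.6 CPM (median 6.64), and GF LKO mice had 1.28 to 4.86 (median 2.33). The group means were 8.92 ± 2.08, 5.21 ± 1.53, 7.09 ± 2.35 and 2.37 ± 0.844 CPM (SD, n = 18 each). SPF WT and GF WT overlapped over most of their range, while 14 of 18 GF LKO libraries lay below every GF WT library and 16 of 18 GF WT libraries lay above every GF LKO library. The highest SPF LKO value, 9.08, was that of a library labelled SPF LKO at ZT18 (replicate 1), 1 of the 4 whose clock genes went against the label, and the next highest was 7.18.

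Tlr5 was 2.96-fold lower in LKO than in WT mice under GF conditions (log2 fold change -1.57, SE 0.16, edgeR adjusted p = 3.1e-10) and 1.72-fold lower under SPF conditions (-0.79, SE 0.13, adjusted p = 1.1e-05). The loss was in the same direction at all 6 ZT in either condition. Germ-free LKO mice had 2.2-fold less Tlr5 than SPF LKO mice (-1.14, SE 0.15, adjusted p = 3.6e-07), and GF WT mice 1.29-fold less than SPF WT mice (-0.36, SE 0.14, adjusted p = 0.0381). The first 3 of these calls held when any library was left out, with log2 fold changes of -1.66 to -1.5, -0.85 to -0.73 and -1.23 to -1.07, and without the libraries that went against their labels they were -1.55, -0.87 and -1.06. The call between GF WT and SPF WT was lost when any of 18 single libraries was left out, with an adjusted p of up to 0.0813. The genotype effect in GF mice minus that in SPF mice was -0.79 on the log2 scale (SE 0.20, p = 2.4e-04), and over all genes its adjusted p was 0.0539, which is not called. None of the 9 genes was called for a difference of the genotype effect, where 0.438% of all genes were, and by unadjusted p 2 of the 9, Tlr5 and Cd14, were under 0.05. DESeq2 called Tlr5, and without the 4 libraries that went against their labels its difference was -0.68 with an adjusted p of 0.222.

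**Figure D2:**
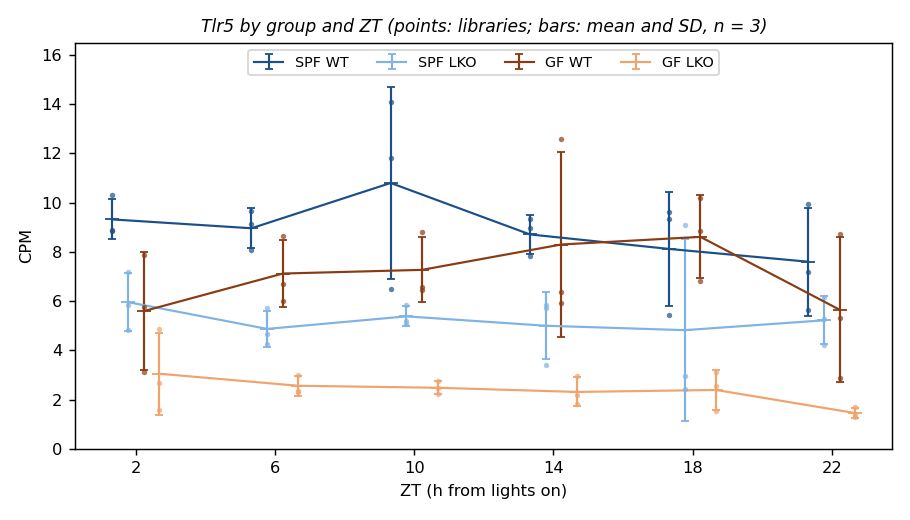
Tlr5 in CPM (y axis) by ZT in hours from lights on (x axis), where points are libraries and bars the mean and SD of 3. The 3 GF LKO libraries of each ZT lie low throughout, between 1.28 and 4.86 CPM, and the wide bar of SPF LKO at ZT18 comes from a library at 9.08 beside 2.96 and 2.43.

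Within ZT, the fit of 24 means called Tlr5 between GF LKO and GF WT mice at ZT6, ZT10, ZT14, ZT18 and ZT22, with log2 fold changes of -1.47, -1.54, -1.85, -1.85 and -1.94 and adjusted p of 0.00416 or less, but not at ZT2 (-0.87, adjusted p = 0.224). At ZT22 the 3 GF LKO libraries had 1.38, 1.69 and 1.28 CPM and the 3 GF WT libraries 2.89, 5.33 and 8.73, so the groups did not overlap there. At ZT2 they did, since GF LKO replicate 2 had 4.86 CPM and GF WT replicate 1 had 3.10. Among SPF mice Tlr5 was called at ZT10 (-1.02, adjusted p = 0.0433), and between GF LKO and SPF LKO mice at ZT22 (-1.83, adjusted p = 0.00385). At ZT18 the library labelled SPF LKO ZT18 replicate 1 decided the value. With it LKO against WT in SPF mice was -0.76 (adjusted p = 0.431), and without the 4 doubted libraries it was -1.58 (adjusted p = 0.00432), while GF against SPF in LKO mice went from -1 to -0.17. No rhythm of Tlr5 was called in any group, with adjusted p of 0.258 to 0.856.

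In the LKO groups the hepatocyte marker Alb, which encodes albumin, was lower as well. Its log2 fold changes were -0.98 under SPF and -1.70 under GF conditions. Of the 7 hepatocyte markers 0 were higher and 1 lower in SPF LKO mice (2 lower without the libraries that went against their labels). In GF LKO mice 2 were higher and 3 lower, with Apoa2 and Serpina1c higher by 0.21 and 0.30. Over all genes 23.1% were called between SPF LKO and SPF WT mice and 30.8% between GF LKO and GF WT mice. Between GF and SPF WT mice 6 of the 7 markers were higher in GF and 0 lower, where 31.8% of all genes were called. Between GF and SPF LKO mice 3 were higher and 1 lower (4 and 0 without the libraries that went against their labels), where 36.4% were called. The sum of 7 hepatocyte markers, much of it Alb, had a median of 113000 CPM in SPF WT, 62200 in SPF LKO, 139000 in GF WT and 65000 in GF LKO mice, and across the 72 libraries its Spearman correlation with Tlr5 was 0.56. The 5 bile duct markers had 1 higher in SPF LKO (2 without the libraries that went against their labels) and 2 higher in GF LKO mice and none lower. Sox9 was higher by 1.17 and 0.78 and Spp1 by 1.18 in GF LKO mice, and Epcam was not called, at -0.34 and 0.24. The sum of the 5, much of it Spp1, had medians of 53.3, 70.3, 44.5 and 91 CPM in the same order of groups. Its correlation with Tlr5 was -0.56, and none of these markers was at 0 in every library. The part of these cells in the Tlr5 result was not tested. In bulk liver, fewer cells of a type and less RNA per cell cannot be told apart. Over the 72 libraries the genes whose level was most like that of Tlr5, among 13484 genes, were Syne3 (Spearman correlation 0.86), Arhgef16 (0.85) and Cd276 (0.85), a description over libraries that share groups and ZT.

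Lbp, the plasma carrier of lipopolysaccharide, rose with clock loss where microbes were absent. Its daily pattern differed between the genotypes of GF mice in the fit of all their libraries. In SPF WT mice Lbp ranged from 40.7 to 144 CPM (median 66) and in SPF LKO mice from 53.3 to 99.4 (median 82.2). GF WT mice had 37 to 84.0 CPM (median 60.5) and GF LKO mice 58.4 to 127 (median 83.4). The GF groups overlapped in part, with 8 of 18 GF LKO libraries above every GF WT library and 8 of 18 GF WT libraries below every GF LKO library. Lbp was 1.37-fold higher in LKO than in WT mice kept GF (log2 fold change 0.46, SE 0.10, edgeR adjusted p = 2.2e-04), in the same direction at all 6 ZT, and no single library ended this call. The corresponding difference in SPF mice was 0.24 (SE 0.12, adjusted p = 0.143), and it was called when SPF WT ZT2 replicate 1, the library with 144 CPM, was left out, at 0.34 with an adjusted p of 0.01. The genotype effects of the GF and SPF mice were not shown to differ (0.21, SE 0.16, adjusted p = 0.957). Germ-free status moved Lbp by -0.18 in WT mice (SE 0.13, adjusted p = 0.285) and by 0.05 in LKO mice (SE 0.09, adjusted p = 0.7). Across the 72 libraries Lbp had a Spearman correlation of -0.62 with the summed hepatocyte markers, much of that sum Alb. With the summed bile duct markers, much of that sum Spp1, it was 0.44. The part of these cells in the Lbp result was not tested.

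Within ZT, the called differences of Lbp between LKO and WT livers fell at ZT10 in either condition and at ZT14 in GF mice. At ZT10 the 3 GF LKO libraries had 86.4, 127 and 94.1 CPM and the 3 GF WT libraries 54.8, 45.4 and 57.1, without overlap (log2 fold change 0.97, SE 0.22, adjusted p = 0.00118). At ZT14 the difference was 0.67 (adjusted p = 0.0355), and at ZT2 and ZT22 it was 0.06 and 0.09. In SPF mice Lbp was higher in LKO at ZT10, where SPF LKO had 72.9, 88.2 and 89.1 CPM and SPF WT 46.3, 53.7 and 41.3 (0.81, SE 0.22, adjusted p = 0.00939). At ZT18 the SPF difference was 0.65 (adjusted p = 0.208), and without the libraries that went against their labels it was 0.84 (adjusted p = 0.013).

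In SPF WT mice Lbp had a 24 h rhythm (edgeR test of cosine and sine terms, adjusted p = 0.0165), with a fitted peak at ZT2.8 and a peak 1.84 times the trough. Its mean was highest at ZT2, at 96.8 ± 40.6 CPM, where a library of 144 stood beside 70.5 and 76.5, and lowest at ZT10, at 47.1 ± 6.25 (SD, n = 3). Among the 9 genes it was the only 1 called in SPF WT mice, where 16.9% of all genes were called, and the call held without any single library and in 6 of 8 alternatives (adjusted p up to 0.175). The library of 144 CPM, SPF WT ZT2 replicate 1, also had its group's highest Cxcl1 and Lcn2. These stood at 60 and 37.2 CPM, against medians of 4.01 and 3.53. SPF WT ZT6 replicate 2, with 99.2 CPM of Lbp, had the group's highest Saa1, 428 CPM against a median of 36.6. These genes were picked after their values were seen. The rhythm of Lbp was not fitted without both libraries, and their part in it was not tested. In GF WT mice the fitted peak was at ZT0.6 and 1.42 times the trough, with an adjusted p of 0.0511, and the rhythm was called without the doubted GF WT library of ZT6 (adjusted p = 0.00432) or without GF WT ZT14 replicate 3. In SPF LKO mice the adjusted p was 0.418. GF LKO mice had their highest mean at ZT10, 102 ± 21.4 CPM, and their lowest at ZT22, 72.9 ± 20.8, with a fitted peak at ZT10.3 and an adjusted p of 0.0845, which fell to 0.014 without GF LKO ZT22 replicate 1. The rhythm of Lbp differed between GF LKO and GF WT mice (adjusted p = 0.0358), the only 1 of the 9 genes called for that difference, where 6.38% of all genes were called. That call held in 5 of 7 alternatives and was lost without replicate 1 or replicate 2 of all groups (adjusted p up to 0.454).

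**Figure D3:**
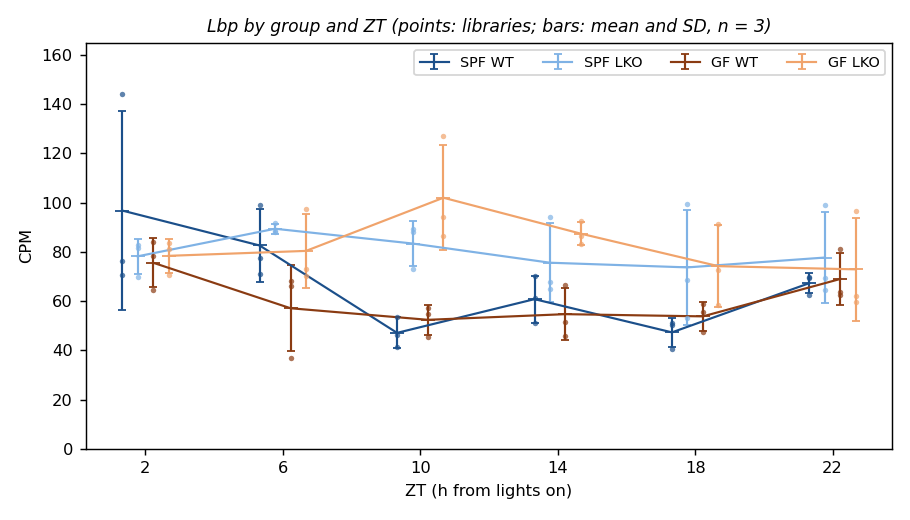
Lbp in CPM (y axis) by ZT in hours from lights on (x axis), where points are libraries and bars the mean and SD of 3. The means of both WT groups are lowest at ZT10, ZT14 and ZT18 and those of the LKO groups stay above them there, with GF LKO highest at ZT10, 102 CPM.

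Of the other tests of a difference of rhythm, 0 of 9 genes were called by edgeR between GF and SPF WT mice (0.0470% of all genes), 0 between GF and SPF LKO mice (5.34%) and 0 between LKO and WT mice kept SPF (1.12%). By unadjusted p under 0.05 these counts were 0, 2 (Ly96 and Nfkbia) and 2 (Lbp and Myd88), and DESeq2 called 0, 1 and 0. Lbp between SPF LKO and SPF WT mice had an adjusted p of 0.3. Across the libraries Lbp was most like Abca2 (Spearman correlation 0.80), Itih3 (0.76) and Adck5 (0.76), and its correlation with Tlr5 was -0.47, the most negative among the 9 genes.

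Cd14, which passes lipopolysaccharide on to the TLR4 complex, was highest in GF LKO mice. It ranged from 1.23 to 3.37 CPM in SPF WT mice (median 2.39), from 1.30 to 3.18 in SPF LKO mice (median 1.97), from 0.804 to 3.98 in GF WT mice (median 1.98) and from 1.44 to 3.95 in GF LKO mice (median 2.62). No pair of groups was separated. GF LKO mice had 1.35-fold more Cd14 than GF WT mice (log2 fold change 0.43, SE 0.15, edgeR adjusted p = 0.0247) and 1.29-fold more than SPF LKO mice (0.37, SE 0.14, adjusted p = 0.0312). The former call held without any single library but in 6 of 10 alternatives only (adjusted p up to 0.144), and the difference rose to 0.52 without the doubted GF WT library of ZT6 (replicate 3), which had the highest Cd14 of all 72. The latter held in 7 of 12 alternatives (adjusted p up to 0.262). It was lost without GF LKO ZT10 replicate 1 or any of the 3 GF LKO libraries of ZT22, which had 3.78, 3.74 and 3.95 CPM, with adjusted p of up to 0.0565, and without the 2 doubted SPF LKO libraries it was 0.056. Neither the genotype effect in SPF mice (-0.13, adjusted p = 0.535) nor the microbial effect in WT mice (-0.21, adjusted p = 0.294) was called, and the difference of the genotype effects was 0.56 (SE 0.20, p = 0.00738, adjusted p = 0.383). The closest gene across libraries, Ppic, reached a correlation of 0.44 only.

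Ly96, which encodes the MD-2 part of the endotoxin receptor, was called in none of the 4 pooled comparisons, with log2 fold changes of -0.02 to 0.20, but it had a called rhythm in both GF groups. The largest of these differences, GF against SPF in LKO mice, was 0.20 (SE 0.09, adjusted p = 0.0575), and it was called without any of 8 of the 36 libraries (adjusted p down to 0.0212). In GF LKO mice Ly96 peaked around ZT1.6, with means of 5.94 ± 0.498 CPM at ZT2 and 4 ± 0.259 at ZT14 (SD, n = 3), and the rhythm was called (peak 1.54 times trough, adjusted p = 0.00295) without losing the call when any single library was left out. At ZT2 the libraries had 6.48, 5.50 and 5.84 CPM and at ZT14 they had 4.20, 4.08 and 3.71, so these times did not overlap. GF WT mice had a fitted peak at ZT3.3, means of 5.47 ± 0.483 at ZT2 and 3.78 ± 0.234 at ZT18, and an adjusted p of 0.0409, a call that was lost without any of 10 of the 18 libraries (adjusted p up to 0.0894). Among SPF mice the means moved between 3.61 and 4.90 CPM without a called rhythm (adjusted p = 0.667 in WT and 0.452 in LKO). The rhythm was not shown to differ between GF and SPF mice, with an adjusted p of 0.0624 in LKO and 0.697 in WT mice.

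Tlr4, the endotoxin receptor itself, was lower in GF than in SPF mice of either genotype. It ranged from 1.67 to 5.13 CPM in SPF WT mice (median 4.04), from 1.99 to 5.02 in SPF LKO (median 3.20), from 2.10 to 3.94 in GF WT (median 2.98) and from 1.68 to 3.50 in GF LKO (median 2.62). The ranges overlapped, but 10 of 18 SPF WT libraries lay above every GF WT library. Tlr4 was 1.26-fold lower in GF WT than in SPF WT mice (log2 fold change -0.33, SE 0.13, edgeR adjusted p = 0.0423) and 1.25-fold lower in GF LKO than in SPF LKO mice (-0.32, SE 0.11, adjusted p = 0.0168). The call in LKO mice held without any single library and in 10 of 12 alternatives (adjusted p up to 0.185), and that in WT mice was lost without any of 20 of the 36 (adjusted p up to 0.0807). LKO against WT gave -0.20 in both SPF (adjusted p = 0.297) and GF mice (adjusted p = 0.119), neither called. Tlr4 was most like Mrc1 (Spearman correlation 0.76), a gene of sinusoidal endothelium and macrophages, Cd38 (0.74) and F8 (0.70), which encodes coagulation factor VIII.

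Tlr2, the lipoprotein receptor, had 1 library far above the others. SPF WT mice ranged from 1.77 to 11.6 CPM (median 2.57), SPF LKO from 1.66 to 3.20 (median 2.08), GF WT from 1.10 to 3.57 (median 2.32) and GF LKO from 0.996 to 3.67 (median 1.83). SPF WT ZT6 replicate 3 had the 11.6 CPM, and the next highest library of its group had 3.61. With it Tlr2 was 1.42-fold lower in GF WT than in SPF WT mice (log2 fold change -0.51, SE 0.20, edgeR adjusted p = 0.0433), and without it the change was -0.24 (SE 0.13, adjusted p = 0.154). This call was lost without any of 13 of the 36 libraries and held in 6 of 12 alternatives (adjusted p up to 0.183). Within ZT6 SPF WT ZT6 replicate 3 gave the calls of GF WT against SPF WT (-1.21, adjusted p = 0.0298) and of SPF LKO against SPF WT (-1.13, adjusted p = 0.0267). Without that library neither was called. The other pooled comparisons gave -0.44 for LKO against WT in SPF mice (adjusted p = 0.0755, and -0.17 with an adjusted p of 0.244 without SPF WT ZT6 replicate 3), -0.25 for GF against SPF in LKO mice (adjusted p = 0.0938, and 0.0154 without GF LKO ZT22 replicate 1) and -0.19 for LKO against WT in GF mice (adjusted p = 0.327). Without SPF WT ZT6 replicate 3 none of the 9 genes was called between GF WT and SPF WT mice, where Tlr5 came to -0.35 (adjusted p = 0.0575), Tlr4 to -0.29 (adjusted p = 0.0807) and Tirap to -0.16 (adjusted p = 0.0683).

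In the same library several genes that NF-kB is known to drive were at their highest of all 72, among them Cxcl10 at 20.9 CPM, Icam1 at 17.7, Il1rn at 13.9, Ccl5 at 12.3, Tnfaip3 at 7.72 and Ccl2 at 5.13. These genes were picked from the lists after their values were seen. Nfkbia itself was not raised there, at 32.4 CPM and the 33rd highest of 72. The summed markers of 3 blood and tissue cell types were also highest in it, with 845 CPM for Kupffer cells, 27.3 for monocytes and 12.3 for lymphocytes, where the medians of SPF WT mice were 453, 8.97 and 2.87. The part of these cells in the Tlr2 value was not tested.

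**Figure D4:**
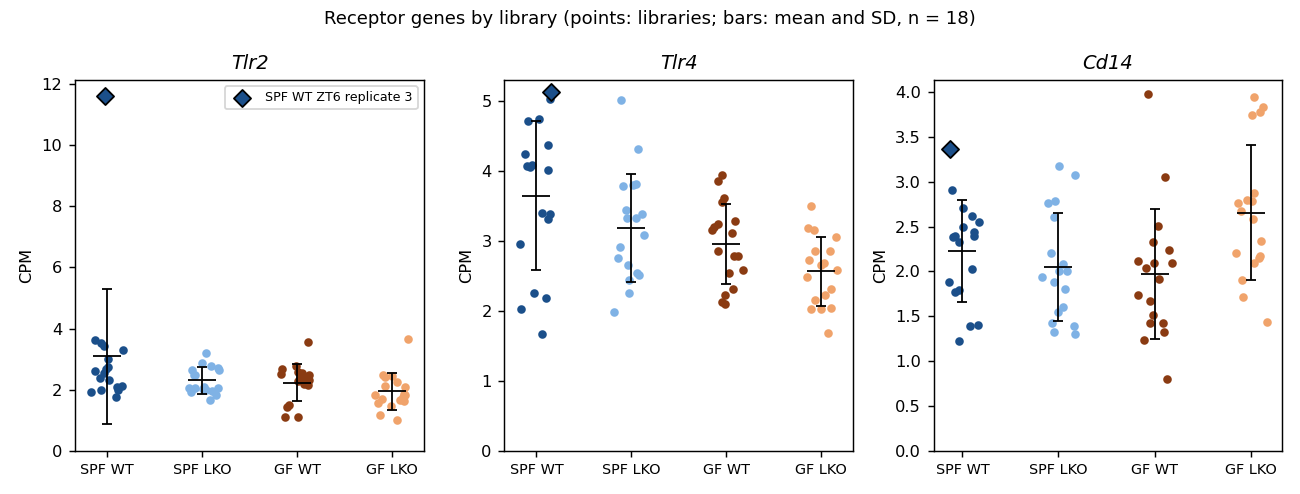
Tlr2, Tlr4 and Cd14 in CPM (y axes) in every library of the 4 groups (x axis), with the mean and SD of 18 as bars and SPF WT ZT6 replicate 3 as a diamond. That library stands apart for Tlr2 at 11.6 CPM, is the highest for Tlr4 at 5.13 and lies within the others for Cd14 at 3.37.

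Markers of macrophages and other cells were read beside the receptors. The 12 Kupffer markers summed to 327 to 845 CPM in SPF WT, 305 to 493 in SPF LKO, 288 to 553 in GF WT and 230 to 485 in GF LKO mice, with none of them at 0, and across the 72 libraries that sum had a Spearman correlation of 0.58 with Tlr4, 0.39 with Tlr2 and 0.19 with Cd14. Between LKO and WT mice 7 of 12 were lower in SPF and 5 of 12 in GF mice. Over all genes 23.1% and 30.8% were called in these comparisons in either direction. Without SPF WT ZT6 replicate 3 the SPF count was 3. Without the libraries that went against their labels the counts were 8 in SPF and 3 in GF mice. Lyz2, which encodes a lysozyme, changed by -0.45 on the log2 scale in SPF LKO and by -0.26 in GF LKO mice, where its adjusted p was 0.0749 without the libraries that went against their labels. Between GF and SPF mice 1 of 12 was lower in either genotype, Folr2 at -0.47 in WT and Csf1r at -0.33 in LKO mice. The 7 sinusoidal endothelial markers had 2 lower and 1 higher in either genotype (1 lower and 1 higher in WT mice without SPF WT ZT6 replicate 3). Of all genes 31.8% were called in WT and 36.4% in LKO mice. Of 8 neutrophil markers 2 could be tested, S100a8 and S100a9. Both were lower in GF mice, with log2 fold changes of -1.30 and -1.33 in WT and of -1.28 and -1.17 in LKO mice. Without SPF WT ZT6 replicate 3 the WT values were -1.20 and -1.19. SPF WT ZT6 replicate 2 had the highest S100a8 and S100a9 of its group, 8.77 and 11.7 CPM. The medians were 1.08 and 1.39 in SPF WT and 0.762 and 1.02 in GF WT mice. How far that library sets the WT changes was not tested. The 8 markers summed to 0.115 to 21.3 CPM, the latter in the same library, and Mpo was at 0 in every library of 3 groups. The part of these cells in the results on Tlr4, Tlr2 and Cd14 was not tested.

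The adaptors differed little between groups. Myd88, which all the receptors here use, ranged from 11.7 to 19.1 CPM in SPF WT mice (median 14.6), from 11.3 to 15.8 in SPF LKO (median 12.9), from 11.9 to 16.9 in GF WT (median 14.2) and from 10.3 to 15.5 in GF LKO (median 12.4). It was 1.14-fold lower in LKO than in WT mice under SPF conditions (log2 fold change -0.18, SE 0.06, edgeR adjusted p = 0.0154) and 1.12-fold lower under GF conditions (-0.17, SE 0.06, adjusted p = 0.02), and both calls held without any single library, in 9 of 13 and 7 of 10 alternatives. These small differences depended on the scaling of the libraries, since with library totals in place of TMM factors the GF difference was 0.01 (adjusted p = 0.933). Within ZT, Myd88 was lower in LKO than in WT mice kept SPF at ZT2, where the libraries had 11.3, 13.1 and 13.2 against 18.1, 16.1 and 15.5 CPM (-0.43, SE 0.12, adjusted p = 0.0194), and at ZT6 (-0.42, SE 0.12, adjusted p = 0.0153). Microbial status moved it by -0.05 in WT and -0.02 in LKO mice, neither called.

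Tirap, which bridges TLR2 and TLR4 to MYD88, had medians of 27.2 and 24.6 CPM in SPF and GF WT mice and of 26.7 and 24.7 in SPF and GF LKO mice, within 18.8 to 34.8 CPM over all libraries. GF WT mice had 1.13-fold less than SPF WT mice (log2 fold change -0.18, SE 0.07, edgeR adjusted p = 0.036), a call lost without any of 13 of the 36 libraries, and GF LKO mice 1.09-fold less than SPF LKO mice (-0.12, SE 0.05, adjusted p = 0.0634, called without any of 6 of the 36 libraries). Genotype changed it by -0.03 and 0.01, not called.

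Nfkbia, the inhibitor that NF-kB induces, was not called between GF and SPF mice (log2 fold change 0.00, SE 0.12, in WT and 0.11, SE 0.11, in LKO mice). It ranged from 19 to 49.9 CPM in SPF WT (median 35.8), from 16.3 to 39.8 in SPF LKO (median 26.4), from 17.1 to 45 in GF WT (median 36.7) and from 20.8 to 39.1 in GF LKO mice (median 27.1). LKO mice had lower medians than WT mice in either condition, with wide overlap. In SPF mice the gene was 1.26-fold lower in LKO (-0.33, SE 0.12, edgeR adjusted p = 0.0429), a call lost without any of 21 of the 36 libraries (adjusted p up to 0.0745). In GF mice the difference was -0.23 (SE 0.11, adjusted p = 0.097), and it was called without GF WT ZT14, ZT18 or ZT22 replicate 3, with adjusted p down to 0.031. The values of replicates 1 to 3 of GF WT at ZT14 (43.1, 36.6 and 17.1 CPM) and of SPF WT at ZT22 (49.9, 38 and 19) show how far libraries of the same group and time differed. Replicate 3 was also the lowest in GF WT at ZT18 and ZT22 (19 and 21.4) and in SPF WT at ZT10 and ZT18 (20.5 and 19.8). It was the highest in GF WT at ZT10 (44.1), SPF WT at ZT2 (41.4) and SPF LKO at ZT18 (39.8). A link of Nfkbia to replicate number was not tested. Across libraries Nfkbia was most like Angptl4 (Spearman correlation 0.82), Rasgef1b (0.78) and Klf15 (0.77), the last of which is a known target of glucocorticoids.

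Time of day was the next question. In GF LKO mice 3 of the 9 genes had a called 24 h rhythm (Ly96, Nfkbia and Myd88), where 38.6% of all genes did, in GF WT mice 1 (Ly96) with 29.4% of all genes, and in SPF LKO mice edgeR called 0 with 24.5% of all genes, with 1, Tlr2, under 0.05 by unadjusted p and 0 called by DESeq2. Nfkbia in GF LKO mice had means of 32.7 CPM at ZT2, ZT6 and ZT10 and 24.5 to 26.1 at the later times (fitted peak ZT6.0, peak 1.40 times trough, adjusted p = 0.0254), and the call was lost without GF LKO ZT6 replicate 1 or ZT18 replicate 1, at adjusted p of up to 0.0549. Myd88 had its highest mean at ZT10, 14.0 ± 1.58 CPM, and its lowest at ZT18, 11.6 ± 0.325 (SD, n = 3; adjusted p = 0.0353), a call lost without any of 7 of the 18 libraries (adjusted p up to 0.0904). Neither gene was called in GF WT mice (adjusted p = 0.847 and 0.939), and the difference of their rhythms between GF LKO and GF WT mice was not called (adjusted p = 0.754 and 0.419).

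**Figure D5:**
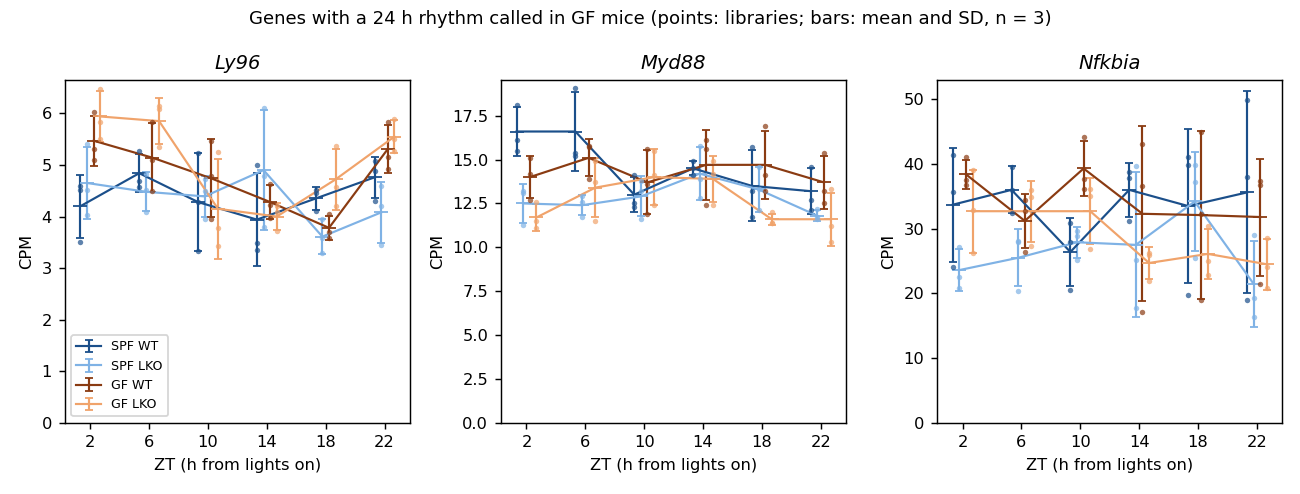
Ly96, Myd88 and Nfkbia in CPM (y axes) by ZT in hours from lights on (x axes), where points are libraries and bars the mean and SD of 3. The mean of Ly96 is highest at ZT2, ZT6 and ZT22 in both GF groups, and in GF LKO mice Nfkbia has a mean of 32.7 CPM at ZT2, ZT6 and ZT10 and 26.1 or less later.

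Counted over the 9 genes and 6 ZT, the 24-mean fit called 1 gene and ZT pair between GF and SPF WT mice (Tlr2 at ZT6), where 4.71% of all such pairs were called, and 1 between GF and SPF LKO mice (Tlr5 at ZT22), where 4.82% were. Between SPF LKO and SPF WT mice 5 pairs were called (Myd88 at ZT2 and ZT6, Tlr2 at ZT6, Tlr5 and Lbp at ZT10) against 5.37% of all pairs, and 4 without SPF WT ZT6 replicate 3. Between GF LKO and GF WT mice 7 pairs were called (Tlr5 at 5 ZT and Lbp at 2) against 9.45%. Cd14, Ly96, Tlr4, Tirap and Nfkbia were called at no ZT in this fit, in which each mean rests on 3 libraries.

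The rest of the pathway was read from lists of genes. Of 13 other Toll-like receptors and partners 10 to 12 could be tested. GF WT mice had 2 higher and 3 lower than SPF WT mice, and GF LKO mice 2 higher and 3 lower than SPF LKO mice. Over all genes 31.8% and 36.4% were called in these comparisons. Tlr8, a receptor of RNA in endosomes, was lower in GF WT mice (log2 fold change -0.72, SE 0.19, adjusted p = 0.00337), and Cd180, a relative of TLR4, in GF LKO mice (-0.67, SE 0.15, adjusted p = 4.9e-04). Cnpy3, a chaperone of the receptors, was higher in GF mice of both genotypes (0.25 and 0.20). The list's median was -0.23 and -0.06 where that of all genes was -0.02, and in WT mice the counts were 1 higher and 2 lower without SPF WT ZT6 replicate 3. Between LKO and WT mice the only call in the list was 1 gene lower in SPF mice, and without that library the count was 0. Of all genes 23.1% were called between these genotypes in SPF and 30.8% in GF mice.

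Among 20 genes of the relay from MYD88 and TICAM1 to NF-kB, clock loss raised 4 and lowered 2 in SPF mice and raised 5 and lowered 3 of 19 tested in GF mice, where 23.1% and 30.8% of all genes were called. Irak4, the kinase next to MYD88, was 0.25 higher in SPF LKO (SE 0.07, adjusted p = 0.00899) and 0.48 higher in GF LKO mice (SE 0.06, adjusted p = 1.8e-08), opposite in sign to Myd88 itself. Traf3 rose by 0.43 and 0.52 and Irf5 by 0.37 and 0.71. The relay's median change was -0.05 and 0.00 beside -0.01 and 0.01 for all genes. Of 5 NF-kB subunits, Rel (-0.33, adjusted p = 0.0072) and Nfkb1 (-0.17, adjusted p = 0.0278) were lower in GF WT than in SPF WT mice, and 1 of the 5 without SPF WT ZT6 replicate 3. In that comparison of all libraries 31.8% of all genes were called.

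Of 15 negative regulators, 14 of them tested, 4 were lower in SPF LKO and 3 in GF LKO than in WT mice and none was higher, where 23.1% and 30.8% of all genes were called in either direction. Sigirr, a receptor that damps Toll-like signalling, had log2 fold changes of -0.62 in SPF LKO mice (SE 0.10, adjusted p = 9.4e-06) and -1.10 in GF LKO mice (SE 0.11, adjusted p = 1.9e-10), from 15.6 to 7.24 CPM in the latter. Zfp36, which destabilizes inflammatory messengers, had -0.58 and -0.52. Nfkbiz, an NF-kB cofactor of the Nfkbia family, was lower in GF mice of both genotypes (-0.78 in WT, adjusted p = 9.3e-06, and -0.60 in LKO, adjusted p = 0.00321), in contrast to Nfkbia, which microbial status left at 0.00 and 0.11. Without SPF WT ZT6 replicate 3 the Nfkbiz difference in WT mice was -0.74 (adjusted p = 2.0e-05).

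The output of the pathway was scarce in these livers, and only 6 or 7 of 14 inflammatory genes could be tested. Icam1, an adhesion molecule, was lower in GF mice, with log2 fold changes of -0.99 in WT (SE 0.18, adjusted p = 8.6e-05) and -0.59 in LKO mice (SE 0.10, adjusted p = 2.2e-05), and without SPF WT ZT6 replicate 3 the WT value was -0.79. Cxcl1, a neutrophil attractant, was lower in LKO than in WT mice, at -1.84 under SPF (SE 0.43, adjusted p = 0.00135) and -1.58 under GF conditions (SE 0.33, adjusted p = 2.5e-04), and Il1rn, which blocks the interleukin 1 receptor, at -1.47 and -0.95. Without SPF WT ZT6 replicate 3 the Il1rn value in SPF mice was -1.03. In all, 3 genes were lower and none higher between GF and SPF WT mice. This count was 1 without SPF WT ZT6 replicate 3 and 4 without the libraries that went against their labels. Between GF and SPF LKO mice 2 were lower. Of all genes 31.8% and 36.4% were called in these comparisons. Between LKO and WT mice 3 were lower in SPF mice, 2 without SPF WT ZT6 replicate 3, and 2 in GF mice. There 23.1% and 30.8% of all genes were called. The list's median was -0.82, -0.34, -0.90 and -0.20 in the 4 comparisons in the order of the plot of fold changes, beside -0.02 to 0.01 over all genes, and without SPF WT ZT6 replicate 3 those of GF against SPF in WT mice and of LKO against WT in SPF mice were -0.47 and -0.23.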

How the data were processed

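Bulk liver RNA of 72 mice was sequenced as stranded mRNA libraries with single-end reads. The authors aligned the reads to mm10 with STAR 2.6.1b and deposited raw counts per gene from featureCounts 2.0.0, without strand and without reads that map to several genes or places. No sample column was left out (0). Groups and replicate numbers came from the submitters' labels.

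Counts were tested with edgeR 4.0.16 in R 4.3.3 (TMM factors, filterByExpr, quasi-likelihood F test, Benjamini-Hochberg adjustment over all genes kept, called at an adjusted p under 0.05), after a test on simulated data. Each pooled comparison used its 36 libraries without ZT as a term, the difference of genotype effects used all 72, rhythms were cosine and sine terms of 24 h in 18 libraries, and the comparison within ZT used 24 means over 72 libraries. Levels are CPM with TMM factors. At 17369927 to 22076113 counts per library, Tlr2, Cd14 and Tlr4 rest on medians of 42, 42 and 56 counts. Replicate numbers did not pair the samples: deviations of same-numbered libraries correlated above 0.1 in 2 to 5 of 18 pairs, with a range of -0.235 to 0.339.

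The 9 genes and the lists were chosen with earlier results of these data known. Of each list at most the 3 genes with the smallest p among those called were named, and for each of the 9 genes the 3 most like it. Alternatives were DESeq2 1.42.0, its size factors, no filter, ZT as a term or factor, a replicate block, and leaving out replicates or doubted libraries. Library totals, leaving out each library on its own, and the fit within ZT without SPF WT ZT6 replicate 3 were chosen after seeing the data.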

Additional observations from a re-analysis of the deposited data

Results flagged for a closer look

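The 24 h rhythm of Lbp differed between GF LKO and GF WT mice by edgeR's test of the difference itself (adjusted p = 0.0358, unadjusted p = 0.00198), with a peak-to-trough size of the difference of 0.875 on the log2 scale. GF WT mice had their highest mean at ZT2, 75.6 CPM, and their lowest at ZT10, 52.4, while GF LKO mice had their highest at ZT10, 102, and their lowest at ZT22, 72.9. Neither group's own rhythm was called, with adjusted p of 0.0511 and 0.0845. The difference was called in 5 of 7 alternatives, and without replicate 1 or replicate 2 of all groups its adjusted p was 0.155 and 0.454.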

How the results depend on the processing

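The counts of called genes were set beside each alternative, fits without doubted libraries among them. Fits without a replicate number or without each library in turn were left aside. In the rest, 112 counts kept to within 1.5 times, 17 rose and 9 fell. For GF against SPF in WT mice the count of 4 became 2 with DESeq2 size factors and 7 with library totals. It was 0 without a filter, 2 with the replicate block and 2 without the doubted WT libraries. It ranged over 0 to 4 when replicates or libraries were left out. For GF against SPF in LKO mice 3 became 5 with library totals (1 to 4 left out), for LKO against WT in SPF mice 3 ranged over 1 to 3, and for LKO against WT in GF mice 4 ranged over 2 to 5. The count of genes whose genotype effect differed between GF and SPF mice, at 0, became 1 with DESeq2, 1 with ZT as a term and 1 with the replicate block (0 left out). The 24 h rhythm in SPF WT mice went from 1 to 2 with DESeq2 and 2 without a filter (0 to 2), in SPF LKO mice it stayed at 0, in GF WT mice it went from 1 to 2 with DESeq2, 0 with ZT as a factor, 0 with the replicate block and 2 without GF WT ZT6 replicate 3 (0 to 2), and in GF LKO mice 3 ranged over 1 to 4. The difference of 24 h rhythm for GF against SPF in LKO mice went from 0 to 1 with DESeq2, and for LKO against WT in GF mice 1 ranged over 0 to 2. By ZT, GF against SPF in WT mice went from 1 to 4 without a filter and to 0 with the replicate block, without all doubted libraries and without GF WT ZT6 replicate 3 (0 to 2). By ZT, GF against SPF in LKO mice went from 1 to 7 without a filter, 3 without all doubted libraries, 2 without SPF LKO ZT18 replicate 1 and 2 with the 12 libraries of each ZT on their own (0 to 2). By ZT, LKO against WT in SPF mice went from 5 to 11 without a filter (1 to 5), and by ZT, LKO against WT in GF mice from 7 to 11 (3 to 6). The cause was not tested. The replicate block changed no other count beyond 1.5 times. Myd88 in LKO against WT in GF mice turned from -0.17 to 0.01 with library totals, the only called value of a single gene that changed sign. Values that were not called and lie near 0 also changed sign, such as Ly96 in GF against SPF in WT mice, from 0.09 to -0.08. With library totals the median of all genes was -0.19, -0.13, 0.10 and 0.18 in the 4 pooled comparisons, where with TMM factors it was -0.02, -0.02, -0.01 and 0.01, and this turned the split of genes called higher and lower from 1810 and 2259 to 449 and 5887, from 2349 and 2392 to 993 and 4564, from 1527 and 1516 to 3502 and 856, and from 1970 and 1929 to 6050 and 870. Tlr5 was called in 12 of 12, 13 of 13 and 10 of 10 alternatives for GF against SPF in LKO mice, LKO against WT in SPF mice and LKO against WT in GF mice, and Lbp in 10 of 10 for the last. The depth limits Tlr2, Cd14 and Tlr4 most, with medians of 42, 42 and 56 counts per library.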

Other observations

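Among genes that clear or carry endotoxin, Pltp, which moves lipopolysaccharide onto lipoproteins, was lower in LKO than in WT mice, with log2 fold changes of -0.60 in SPF mice (edgeR adjusted p = 0.0177) and -1.11 in GF mice (adjusted p = 5.0e-07), and Alpl, a phosphatase that can detoxify lipopolysaccharide, at -0.83 and -1.2. Apoa1, the main protein of high-density lipoprotein, was higher in GF mice by 0.53 in WT and 0.54 in LKO. Of the 9 genes tested in this list, 3 were higher and 1 lower in GF WT, 3 higher and 3 lower in GF LKO against SPF mice, and 2 higher and 4 lower in LKO of either condition, where 31.8%, 36.4%, 23.1% and 30.8% of all genes were called.

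Of 15 acute phase genes, clock loss lowered 5 and raised 1 in SPF mice (9 and 1 without the libraries that went against their labels) and lowered 6 and raised 3 in GF mice (7 and 1 without them), where 23.1% and 30.8% of all genes were called. Saa4 had log2 fold changes of -1.16 and -1.61 and Orm3 of -1.33 (-2.07 without those libraries) and -2.10, while Apcs, which encodes serum amyloid P, rose by 0.55 and 0.71. Between GF and SPF mice 2 were higher and 3 lower in WT (1 and 1 without SPF WT ZT6 replicate 3), and 6 higher and 1 lower in LKO. There 31.8% and 36.4% of all genes were called. Among 9 or 10 testable cytosolic and peptidoglycan sensors, Nod1 was lower in GF mice at -0.40 in WT and -0.49 in LKO, Aim2 at -0.82 and -0.56, and Pglyrp2, a secreted hydrolase of peptidoglycan, was higher by 0.29 and 0.28. That list had 1 higher and 2 lower in GF WT, 1 and 4 in GF LKO, 1 and 1 in SPF LKO against WT, and 1 and 3 in GF LKO against WT. Over all genes 31.8%, 36.4%, 23.1% and 30.8% were called in the same order.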
